A study of Mus musculus with 49 samples.

Results

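Enteroendocrine cells are the scattered hormone-secreting cells of the gut lining, and they read the gut contents through receptors and channels at their surface. The 7 mouse genes described here encode such sensors: Ffar1, Ffar2, Gpr119, Gpbar1, Casr, Cnr1 and Trpa1. They were chosen by name, with earlier results of these data known, and all 7 were found among the 24062 genes of the read count table. As background, FFAR1 responds to long-chain fatty acids, FFAR2 to short-chain fatty acids made by gut bacteria, GPR119 to lipid amides and monoacylglycerols, and GPBAR1 (also called TGR5) to bile acids. CASR senses extracellular calcium and, with it, aromatic amino acids, CNR1 is the cannabinoid receptor type that also occurs on nerve endings, and TRPA1 is a cation channel opened by irritant chemicals such as mustard oil. FFAR1 and CASR signal mainly through Gq and calcium, GPR119 and GPBAR1 raise cyclic AMP through Gs, FFAR2 couples to Gq and Gi, and CNR1 to Gi. TRPA1 is known in the gut from serotonin-releasing enterochromaffin cells.

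The study sequenced RNA from 25 libraries in 12 groups, all of adult epithelium from crypts of the proximal small intestine of mice of mixed B6;129 background. Bmi1-GFP cells (Bmi-1GFP/+, sorted for GFP driven by the Bmi1 locus) were taken 36 h after whole-body radiation of 10 Gy (1 library) or untreated (3 libraries). The next 5 groups were sorted from mice labelled wild type. Enteroendocrine cells were the CD24-high cells negative for the UEA lectin (2 libraries), and Paneth cells the CD24-high cells with high lectin binding (2 libraries). Goblet cells were CD274+CD69+ cells sorted 115 h after DBZ, an inhibitor of Notch, given as 48 mg/kg at 0 and 12 h (2 libraries). CD274+CD69+ cells were also sorted 1 day after the last of several injections of diphtheria toxin at 50 µg/kg (DT, 2 libraries; the labels give no receptor allele) and without treatment (control, 2 libraries). Unsorted crypts served for the 3 progenitor groups of 2 libraries each. DBZ secretory progenitors came from Atoh1 F/F mice without Cre, 38 h after the same DBZ doses. Rbpj secretory progenitors came from Rbpj F/F; Villin-CRE mice on day 3 after daily tamoxifen (2 mg a dose) over 2 days. Enterocyte progenitors came from Atoh1 F/F; Villin-CRE mice 3 weeks after 5 daily doses of 1 mg tamoxifen. Villin-CRE acts across the intestinal epithelium. The stem cell groups were GFP+ cells of Lgr5EGFP-DTR mice (Lgr5-GFP-DTR, 2 libraries) and GFP-high cells of Lgr5EGFP-IRES-CRE-ERT2 mice (Lgr5-GFP-Cre, 3 libraries).

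Total counts ran from 11179085 to 27371108 per library. The SMART-Seq kit was used for all libraries but 3, both Rbpj secretory progenitor libraries and CD274+CD69+ control replicate 1, for which TruSeq was used. The labels call the libraries biological replicates without naming separate mice, so p-values measure the spread between libraries. Levels below are CPM, read counts scaled to the same total in each library with TMM factors, and they are compared between groups, not between genes, because gene lengths were not used. The deleted gene Atoh1 stood at 1.49 and 1.74 CPM in enterocyte progenitors, under all other groups, and Rbpj at 21.0 and 28.4 CPM in Rbpj secretory progenitors, against 42.8 and 43.6 CPM in enterocyte progenitors and 39.5 and 32.8 CPM in DBZ secretory progenitors, the other unsorted crypts. Several sorted groups without that deletion were as low or lower in Rbpj, down to 11.2 CPM in Lgr5-GFP-DTR cells. These are counts over the whole gene, so what remains may come from outside the deleted part. The 20 enteroendocrine markers summed to 2895 CPM in irradiated Bmi1-GFP cells, 9452 to 17447 CPM in Bmi1-GFP cells and 14947 to 27944 CPM in enteroendocrine cells, against 329 to 375 CPM in Lgr5-GFP-Cre cells and 29.7 to 48.3 CPM in enterocyte progenitors. The enteroendocrine libraries also held markers of other cells: 11 tuft cell markers summed to 901 CPM in replicate 1 and 5463 CPM in replicate 2, and 6 Paneth markers to 51304 to 57819 CPM. Lgr5-GFP-DTR libraries carried 156844 to 215365 CPM of the same Paneth markers. In such bulk libraries, fewer cells of a type and less RNA per cell cannot be told apart.

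Ffar2 and Trpa1 were the members that could be read in every group. A member was taken as too low to read in a group when every library there had under 10 reads. By that rule Cnr1 was readable in 7 groups and too low in 5, Gpr119 in 5 and too low in 7, Casr in 4 and too low in 8, and Ffar1 in 3 and too low in 9. Gpbar1 was readable in 2 groups and too low in 10, with 111 reads over all 25 libraries. Enteroendocrine and Bmi1-GFP cells together held 61.3% of the Gpbar1 reads and 68.7% of the Ffar2 reads, and between 74.1% and 84.5% of those of the other members. All 7 passed the filter on low counts, but Gpbar1 did so only through the enteroendocrine libraries.

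**Figure D1:**
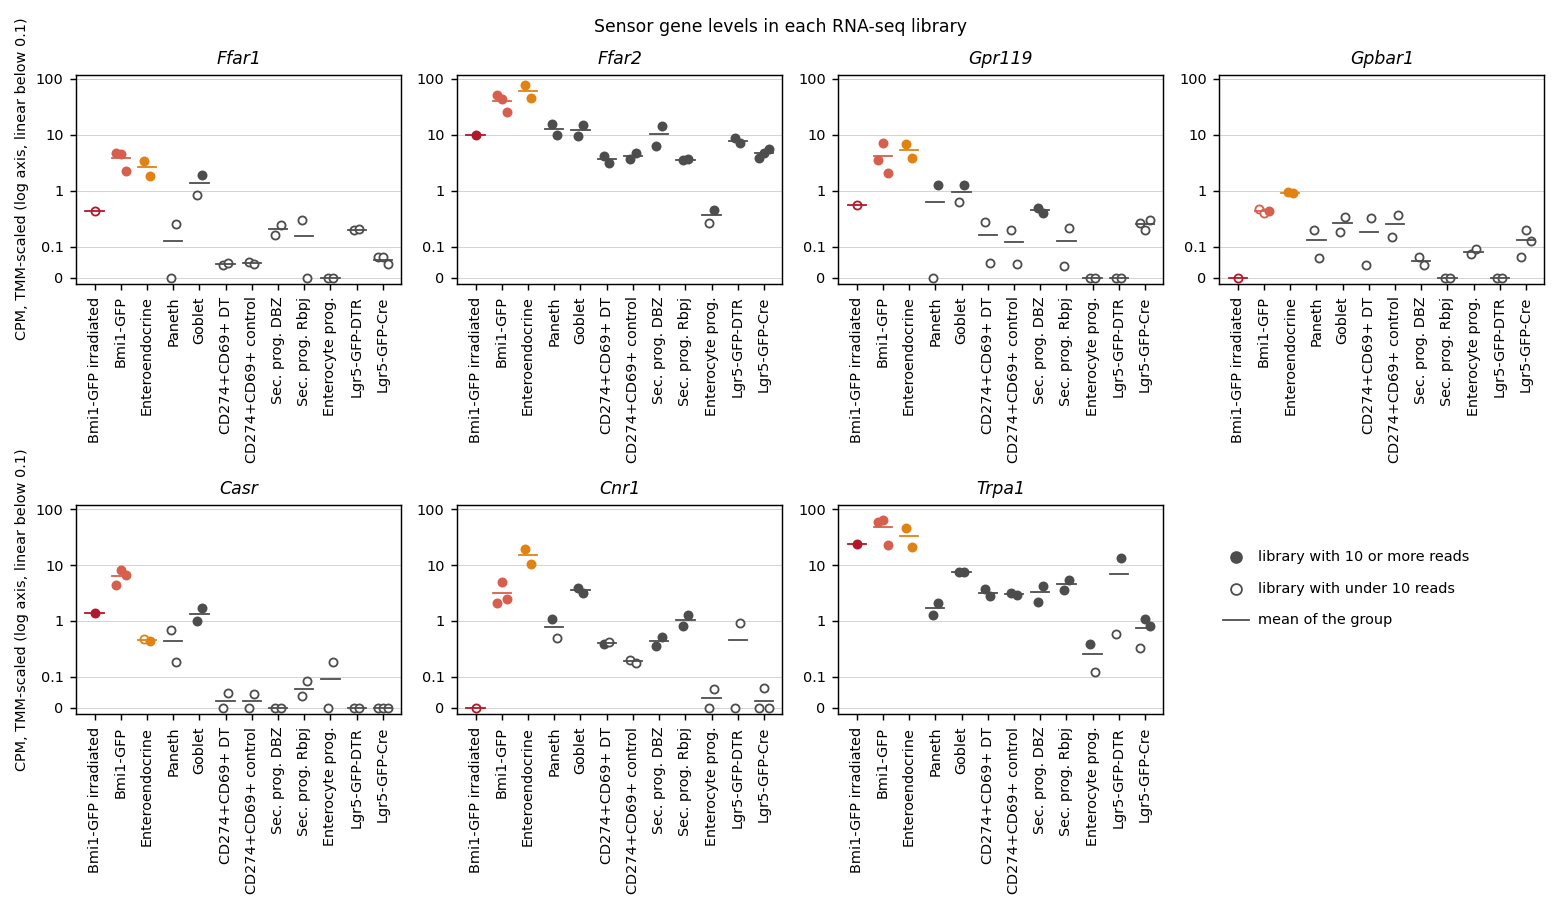
Each panel plots 1 gene, with its TMM-scaled CPM on a log axis (linear below 0.1) and the 12 groups side by side. Points are libraries, open where under 10 reads were counted, and bars are group means. The Bmi1-GFP and enteroendocrine means are the 2 highest for each gene except Casr, whose enteroendocrine libraries (0.446 to 0.481 CPM) lie below the goblet libraries, and Cnr1, whose goblet libraries lie within the Bmi1-GFP range.

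Among the lipid receptors, Ffar1 had 82, 91 and 52 reads in Bmi1-GFP cells (4.76, 4.58 and 2.28 CPM) and 64 and 49 reads in enteroendocrine cells (3.42 and 1.82 CPM). Goblet cells followed with 0.820 and 1.94 CPM. These 3 groups are neighbours in level and their libraries overlap from each to the next. The irradiated Bmi1-GFP library had 7 reads, and no library elsewhere had more than 8. Both enterocyte progenitor libraries had 0 reads. Ffar1 is a short gene at chr7:30860568-30861470 (GRCm38.p6), annotated as coding sequence alone, and the B cell gene Cd22 lies 3933 bases away.

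The Bmi1-GFP libraries had 3.48, 7.20 and 2.06 CPM of Gpr119 and the enteroendocrine libraries 6.79 and 3.83 CPM, with overlapping libraries. Goblet cells had 0.638 and 1.27 CPM. The Paneth libraries split into 20 reads (1.25 CPM) and 0 reads, beside tuft marker sums of 1548 and 77.6 CPM. DBZ secretory progenitors had 15 and 10 reads (0.490 and 0.404 CPM), the only other readable group. No Gpr119 read was counted in enterocyte progenitors or in Lgr5-GFP-DTR cells. Tuft marker sums there were 881 to 1762 CPM and 1642 to 2127 CPM, and their relation to Gpr119 was not tested.

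Ffar2 had the widest reach. It reached 51.8, 43.5 and 25.6 CPM in the Bmi1-GFP libraries (mean 40.3 ± 13.4, SD, n = 3) and at 77.8 and 44.8 CPM in enteroendocrine cells (61.3 ± 23.3, SD, n = 2). After a gap came Paneth cells at 12.9 ± 3.89 CPM, goblet cells at 12.3 ± 3.80 CPM, DBZ secretory progenitors at 10.3 ± 5.63 CPM and the irradiated Bmi1-GFP library at 9.80 CPM. Neighbours among these overlap. Lgr5-GFP-DTR cells (7.06 and 8.69 CPM) lay within the DBZ range, and Lgr5-GFP-Cre cells (3.78 to 5.49 CPM) lay below them. The Lgr5-GFP-Cre libraries overlapped those of CD274+CD69+ control cells (3.76 and 4.69 CPM) and DT-treated CD274+CD69+ cells (3.10 and 4.17 CPM), and Rbpj secretory progenitors (3.53 and 3.63 CPM) lay within the DT range. Enterocyte progenitors were lowest, at 0.268 and 0.457 CPM. Ffar2 overlaps a noncoding gene on the opposite strand that is not among the counted genes, and the strand setting of the counting is not given in the sources used here.

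Gpbar1 was read in enteroendocrine cells with 18 and 24 reads (0.962 and 0.892 CPM) and in 1 of the Bmi1-GFP libraries with 10 reads, next to 8 and 8 in the others (0.402 to 0.465 CPM). The Bmi1-GFP and enteroendocrine libraries did not overlap. No library of the other groups passed 8 reads. Irradiated Bmi1-GFP cells, Rbpj secretory progenitors and Lgr5-GFP-DTR cells had 0.

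Casr was highest in Bmi1-GFP cells, with 76, 163 and 150 reads (4.41, 8.20 and 6.59 CPM), against 9 and 12 reads in enteroendocrine cells (0.481 and 0.446 CPM). Every Bmi1-GFP library stood above every other library of the series. The irradiated Bmi1-GFP library was next with 1.42 CPM, among the goblet libraries at 1.00 and 1.69 CPM. Paneth cells had 7 and 3 reads. Casr had 0 reads in 10 libraries, among them all of the DBZ secretory progenitor, Lgr5-GFP-DTR and Lgr5-GFP-Cre libraries.

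Cnr1 was highest in enteroendocrine cells, where 364 and 283 reads gave 19.5 and 10.5 CPM; Bmi1-GFP cells had 2.09, 4.98 and 2.50 CPM. Goblet cells, at 3.83 and 3.21 CPM, lay inside the Bmi1-GFP range. Rbpj secretory progenitors had 0.796 and 1.28 CPM, overlapping the Paneth libraries at 1.09 and 0.500 CPM. DBZ secretory progenitors (0.359 and 0.525 CPM) and DT-treated CD274+CD69+ cells (0.394 and 0.423 CPM) overlapped as well. In Lgr5-GFP-DTR cells replicate 2 had 9 reads and replicate 1 had 0. Lgr5-GFP-Cre cells had 1 read over 3 libraries.

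Trpa1 had 58.2, 64.5 and 22.8 CPM in the Bmi1-GFP libraries (48.5 ± 22.5, SD, n = 3) and 45.6 and 21.5 CPM in the enteroendocrine libraries (33.6 ± 17.0, SD, n = 2), with the irradiated Bmi1-GFP library at 23.7 CPM. These 3 groups overlap. Goblet cells, at 7.56 and 7.68 CPM, lay below them and above all libraries of the remaining groups but 1, Lgr5-GFP-DTR replicate 2 at 13.3 CPM. Its partner library had 6 reads (0.593 CPM), so the Lgr5-GFP-DTR level of Trpa1 rests on 1 library. Rbpj secretory progenitors (3.56 and 5.51 CPM), DBZ secretory progenitors (2.22 and 4.28 CPM), DT-treated CD274+CD69+ cells (2.77 and 3.66 CPM) and CD274+CD69+ control cells (2.97 and 3.16 CPM) overlapped each with the next. Paneth cells had 1.29 and 2.12 CPM, Lgr5-GFP-Cre cells 0.326 to 1.11 CPM and enterocyte progenitors 0.382 and 0.122 CPM.

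Within both groups several members were low in the library that was low in granins, the secretory granule proteins of endocrine cells. Bmi1-GFP replicate 3 was the lowest of its group for Ffar1, Ffar2, Gpr119 and Trpa1, and its sum of 5 granin genes (Chga, Chgb, Scg2, Scg3 and Scg5) was 2068 CPM, under 5326 and 5647 CPM in replicates 1 and 2. Enteroendocrine replicate 1 exceeded replicate 2 for all 7 members and for the granins (6116 and 3019 CPM), while replicate 2 had more tuft markers.

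Set against Lgr5-GFP-Cre stem cells, all 7 sensors were higher in enteroendocrine cells (edgeR quasi-likelihood test, Benjamini-Hochberg over 14837 genes, threshold 0.05), where 25.5% of all genes tested were higher. Since the members pass the low-count filter through the groups in which they are high, such counts describe them and support nothing. For Ffar2 the log2 fold change was 3.77 ± 0.38 (SE; adjusted p = 1.38e-06), for Trpa1 5.55 ± 0.79 (2.91e-05) and for Gpr119 4.41 ± 0.96 (adjusted p = 0.00148). Gpbar1 differed by 2.85 ± 0.80 on the log2 scale (adjusted p = 0.00849). Where the stem cells had 1 to 3 reads, the ratio of CPM over the group is given with its exact counting interval: 772 (138 to 30533) for Cnr1 and 44.9 (14.99 to 221) for Ffar1. Casr, with no stem cell read, was at least 8.35-fold higher, taking 3 counts over the group as the floor (adjusted p = 0.00368). The median log2 fold change was 5.47 over the members, or 4.41 with Casr at its bound, and 0.04 over all genes tested. Myeloid markers also moved here: 14 of 15 were higher in enteroendocrine cells (363 to 642 CPM in sum, against 32.0 to 55.1 CPM in Lgr5-GFP-Cre cells). All 11 tuft markers, 5 of 7 B and plasma cell markers and 4 of 6 mast cell markers were higher too, and their part in these results was not tested.

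Against Lgr5-GFP-DTR stem cells all 7 were again higher in enteroendocrine cells, with 19.9% of all genes higher. The log2 fold change was 2.99 ± 0.43 for Ffar2 (edgeR adjusted p = 9.74e-05) and 5.06 ± 0.92 for Cnr1 (adjusted p = 0.0006). Gpr119 was at least 33.7-fold and Gpbar1 at least 6.15-fold higher, both with 0 reads in the stem cells. Trpa1, with the split libraries above, differed by 2.30 ± 0.78 (adjusted p = 0.0294). The median log2 fold change of the members was 5.06, or 2.99 with bounds for the genes at 0 reads, and that of all genes 0.08. The count fell to 4 without enteroendocrine replicate 1 or without Lgr5-GFP-DTR replicate 1, with Ffar1, Casr and Trpa1 lost each time, and to 3 (Ffar2, Gpr119 and Cnr1) when these 2 groups were fitted alone. Beside the sensors, 12 of 15 myeloid markers (363 to 642 CPM in sum in enteroendocrine cells, against 59.1 to 68.0 CPM in Lgr5-GFP-DTR cells) and 4 of 6 mast cell markers were higher and 3 of 6 Paneth markers lower; their part was not tested.

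Against Paneth cells, which share the CD24-high gate, 6 sensors were higher in enteroendocrine cells, beside 15.4% of all genes. The log2 fold change was 4.35 ± 0.87 for Trpa1 (edgeR adjusted p = 0.00198), 4.34 ± 0.86 for Cnr1 (adjusted p = 0.00189), 4.22 ± 1.05 for Ffar1 (adjusted p = 0.00748) and 2.33 ± 0.42 for Ffar2 (adjusted p = 0.000944). Gpr119 and Gpbar1 passed narrowly, with adjusted p = 0.0361 and 0.0336. Gpbar1 kept its call in 2 of 10 other settings, and lost it without any 1 of the 4 libraries, and Gpr119 kept its call in 6 of 10. Casr did not pass: 21 reads in enteroendocrine cells and 10 in Paneth cells gave a log2 fold change of 0.21 ± 0.98 (adjusted p = 0.899). The median was 3.07 over the members and 0.03 over all genes. Without enteroendocrine replicate 1, without Paneth replicate 1, or with these 2 groups fitted alone, 3 members passed (Ffar2, Cnr1 and Trpa1). Of other cells' markers, 12 of 15 myeloid ones were higher (363 to 642 CPM in sum in enteroendocrine cells, against 54.0 to 108 CPM in Paneth cells) and 7 of 8 enterocyte ones lower; their part was not tested.

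Against goblet cells 4 sensors were higher in enteroendocrine cells: Ffar2 (log2 fold change 2.61 ± 0.42, edgeR adjusted p = 3.01e-05), Gpr119 (2.77 ± 1.02), Trpa1 (2.44 ± 0.78) and Cnr1 (2.39 ± 0.76). That stands beside 36.8% of all genes, and the median was 2.39 over the members and 0.35 over all genes (0.16 with DESeq2 size factors). Ffar1 had 1.21 ± 0.85 (adjusted p = 0.22), Gpbar1 2.09 ± 0.89 (adjusted p = 0.0514) and Casr -1.24 ± 0.91 (adjusted p = 0.249). Only Ffar2 passed without enteroendocrine replicate 1 or without either goblet library. Here 12 of 15 myeloid markers and 10 of 11 tuft markers were higher in enteroendocrine cells, and 8 of 8 enterocyte markers were lower (1388 to 2090 CPM in sum, against 117158 to 123232 CPM in goblet cells); their part was not tested.

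Bmi1-GFP cells, too, were set against Lgr5-GFP-Cre cells, and 6 sensors were higher, beside 27.9% of all genes. As both of these comparisons use the same stem cell libraries, they are not independent. Casr was at least 118-fold higher in Bmi1-GFP cells (edgeR adjusted p = 3.28e-05), Ffar1 had a ratio of 68.2 (23.0 to 333) and Cnr1 of 175 (31.0 to 6931). The log2 fold change was 5.997 ± 0.78 for Trpa1 (adjusted p = 1.2e-05), 4.02 ± 0.91 for Gpr119 (adjusted p = 0.00187) and 3.08 ± 0.35 for Ffar2 (adjusted p = 4.36e-06). Gpbar1 had 26 reads in Bmi1-GFP cells and 7 in Lgr5-GFP-Cre cells, and its log2 fold change of 1.69 ± 0.77 did not pass (adjusted p = 0.0768). The median log2 fold change was 5.95 over the members, or 5.997 with Casr at its bound and Ffar1 and Cnr1 at their ratios, and 0.09 over all genes. T cell markers moved as well, with 9 of 9 tested higher in Bmi1-GFP cells (1003 to 2385 CPM in sum, against 21.9 to 44.7 CPM in Lgr5-GFP-Cre cells). So were 10 of 11 tuft and 6 of 8 enterocyte markers, while 5 of 6 Paneth markers were lower; their part was not tested.

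The same 6 sensors were higher in Bmi1-GFP than in CD274+CD69+ control cells, where 9.72% of all genes were higher. Ffar2 differed by 3.23 ± 0.42 on the log2 scale (edgeR adjusted p = 0.00013), Cnr1 by 4.02 ± 0.88 (adjusted p = 0.00447), Trpa1 by 3.96 ± 0.80 (adjusted p = 0.00273) and Gpr119 by 5.07 ± 1.17 (adjusted p = 0.00737). The ratio was 79.7 (21.8 to 663) for Ffar1, on 2 control reads, and 276 (49.2 to 10919) for Casr, on 1. The median was 4.02 over the members and 0.02 over all genes. Without either control library, of which replicate 1 is the TruSeq one, 3 members passed (Ffar1, Ffar2 and Casr). Over all genes 1442 were higher and 1371 lower in Bmi1-GFP cells with TMM, and 1547 higher and 872 lower with DESeq2 size factors. The markers of T cells (9 of 9 tested), tuft cells (11 of 11) and B and plasma cells (5 of 7) were higher in Bmi1-GFP cells as well, T cell sums being 1003 to 2385 CPM there and 43.2 to 153 CPM in control cells; their part was not tested.

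Bmi1-GFP and enteroendocrine cells differed in 2 of the 7 sensors, in opposite directions. Casr was higher in Bmi1-GFP cells by 3.70 ± 0.91 on the log2 scale (edgeR adjusted p = 0.00965), with 12.6% of all genes higher. Cnr1 was lower in Bmi1-GFP cells, at -2.31 ± 0.66 (adjusted p = 0.0164), with 12.1% of all genes lower. For both genes every Bmi1-GFP library lay on 1 side of every enteroendocrine library. The other 5 did not pass, at 0.49 ± 0.75 for Ffar1, -0.69 ± 0.35 for Ffar2, -0.39 ± 0.84 for Gpr119, -1.15 ± 0.72 for Gpbar1 and 0.45 ± 0.67 for Trpa1 (log2 scale, SE). The median over the 7 was -0.39. Neither gene passed without enteroendocrine replicate 1, only Cnr1 passed without enteroendocrine replicate 2, and only Casr without Bmi1-GFP replicate 1 or Bmi1-GFP replicate 3. With the replicate number as a block Cnr1 did not pass (edgeR adjusted p = 0.0559), and Casr did (0.023). Cells were freed with different enzymes, TrypLE for Bmi1-GFP and Dispase for enteroendocrine cells, so that step and the cell type cannot be told apart. Other cells differed too: 8 of 9 T cell and 7 of 8 enterocyte markers were higher in Bmi1-GFP cells, and 8 of 15 myeloid, 6 of 11 tuft, 6 of 6 Paneth and 4 of 6 mast cell markers were lower. Of the neuron and glia markers 1 of 4 tested was lower, and the list summed to 13.7 to 33.6 CPM in Bmi1-GFP cells and 22.6 to 41.7 CPM in enteroendocrine cells. The part of these markers was not tested.

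**Figure D2:**
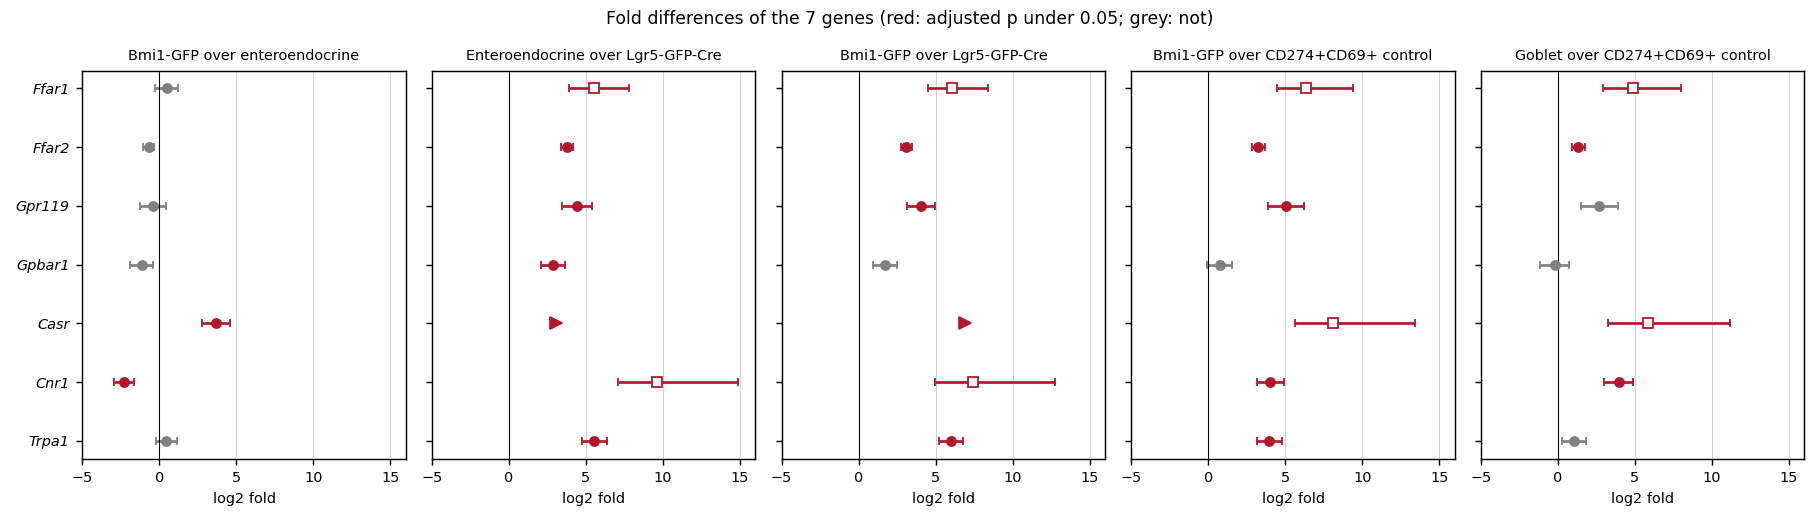
Log2 fold of each gene in 5 comparisons, Bmi1-GFP over enteroendocrine first. Circles are fitted values with their SE, open squares are ratios with exact 95% counting intervals where 1 group had 1 to 3 reads, and triangles are lower bounds against a group at 0 reads; red marks passed the threshold. In the first panel Casr (3.70) and Cnr1 (-2.31) are the only red marks.

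These 2 genes passed between Bmi1-GFP and enteroendocrine cells, beside 12.6% of all genes higher and 12.1% lower. Each call was lost in some other settings. For these 2 the 250 bases before the annotated starts are shown (RefSeq, GRCm38.p6). Promoter entries were matched for 6 members. Casr lies on the minus strand and the window is chr16:36562135-36562384. Its last bases lie inside the annotated span of the gene, which ends at chr16:36562141. Cnr1 lies on the plus strand, and the window is that of the first of its 3 entries, chr4:33924014-33924263. The annotated span of Cnr1 opens at chr4:33923171, so this window lies inside the gene and not upstream of it. Both windows are written 5′ to 3′ on the gene's strand.
Casr: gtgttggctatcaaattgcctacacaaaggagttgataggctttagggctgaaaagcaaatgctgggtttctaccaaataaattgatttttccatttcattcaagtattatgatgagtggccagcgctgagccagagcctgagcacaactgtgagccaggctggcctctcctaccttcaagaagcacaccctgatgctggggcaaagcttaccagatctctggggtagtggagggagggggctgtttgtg
Cnr1: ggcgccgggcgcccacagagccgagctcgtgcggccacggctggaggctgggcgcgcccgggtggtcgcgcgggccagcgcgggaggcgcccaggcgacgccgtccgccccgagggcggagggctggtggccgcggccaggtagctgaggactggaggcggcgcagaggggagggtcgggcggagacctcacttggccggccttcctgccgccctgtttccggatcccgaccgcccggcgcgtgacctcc
The letters differ in base composition, with 48.8% G or C for Casr and 79.2% for Cnr1. Neither window holds CAGATG (an E-box of the kind bound by NEUROD1), TAATTA (a homeodomain motif) or TGACGTCA (the cyclic AMP response element), read on both strands. Of 32841 promoter windows of the same length, 14.4% hold the E-box, 4.84% TAATTA and 1.55% TGACGTCA.

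Among the members' windows a match was found for Ffar1 alone. Ffar1 is annotated as coding sequence alone, so its annotated start is the start codon and its window need not be promoter sequence. The 30 bases at chr7:30861512-30861541 (minus strand) are shown with the E-box in capitals, 59 bases before that start.
Ffar1: ttcttttctctgCAGATGagctgagtacag
A match is a description of these letters, not of binding.

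The contrast between Bmi1-GFP and enteroendocrine cells was also seen per granin. For each 1000 CPM of the 5 granin genes, Casr had 0.829, 1.45 and 3.19 CPM in the Bmi1-GFP libraries and 0.0787 and 0.148 CPM in the enteroendocrine ones. Cnr1 had 0.393, 0.882 and 1.21 CPM in the Bmi1-GFP libraries and 3.18 and 3.48 CPM in the enteroendocrine ones. In neither gene do the groups overlap. Trpa1, whose plain CPM overlapped, was separate on this scale, at 10.9, 11.4 and 11.002 CPM per 1000 granin CPM in the Bmi1-GFP libraries and 7.45 and 7.13 CPM in the enteroendocrine ones. Ffar1 was separate in the same direction, at 0.811 to 1.10 in Bmi1-GFP cells and 0.559 to 0.603 in enteroendocrine cells, and Gpr119 overlapped. Ffar2 had 7.71 to 12.4 in Bmi1-GFP cells and 12.7 and 14.8 in enteroendocrine cells, a narrow gap, and 46.7 and 46.8 in Paneth cells. These ratios are descriptions, without a test.

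**Figure D3:**
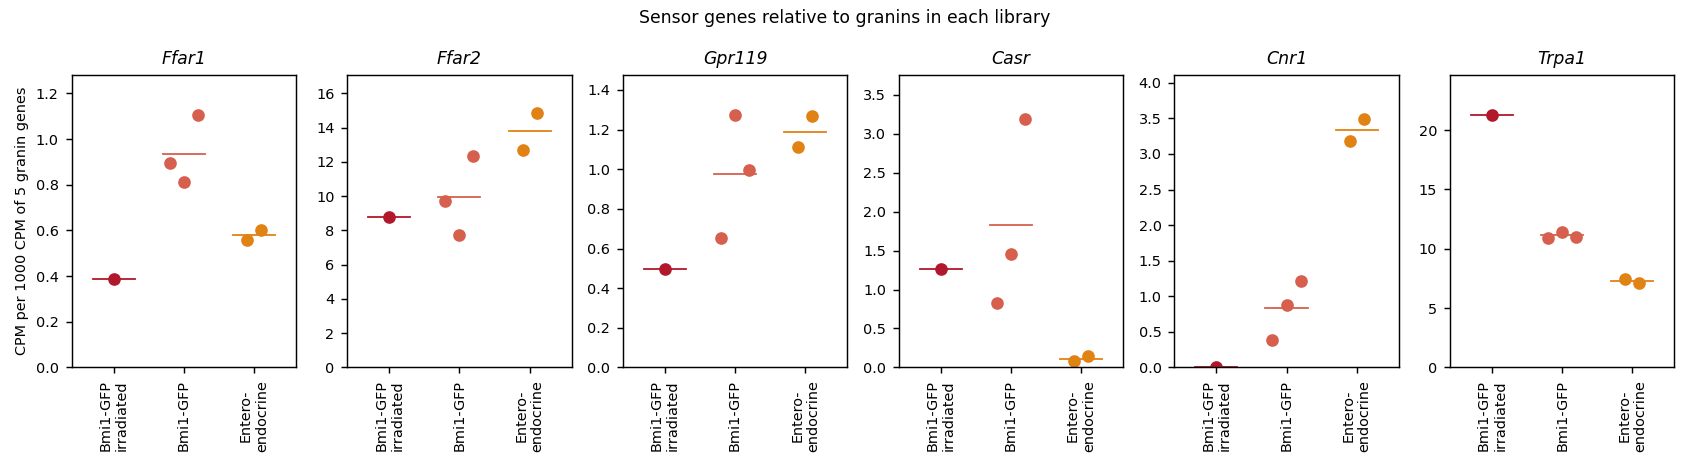
Each panel plots 1 gene as CPM per 1000 CPM of 5 granin genes, linear axes from 0, for irradiated Bmi1-GFP, Bmi1-GFP and enteroendocrine libraries; points are libraries and bars means. Casr lies between 0.829 and 3.19 in Bmi1-GFP and at 0.0787 and 0.148 in enteroendocrine libraries, and Cnr1 lies the other way. Gpbar1 is left out for its low reads.

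In CD274+CD69+ control cells 1 sensor was higher than in Lgr5-GFP-Cre cells: Trpa1, by 2.03 ± 0.78 on the log2 scale (edgeR adjusted p = 0.0414; 24% of all genes higher). That call was lost without either control library and without Lgr5-GFP-Cre replicate 1 or 3, and with the replicate number as a block (edgeR adjusted p = 0.106). Of other markers 6 of 8 enterocyte ones were higher and 5 of 6 Paneth ones lower in control cells; their part was not tested. Ffar2 had -0.15 ± 0.38 (adjusted p = 0.778).

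Goblet cells, sorted with the same antibodies after DBZ, had 4 sensors higher than in CD274+CD69+ control cells, beside 21.8% of all genes. Cnr1 differed by 3.93 ± 0.91 on the log2 scale (edgeR adjusted p = 0.00146) and Ffar2 by 1.31 ± 0.42 (adjusted p = 0.0141). The ratio was 29.7 (7.59 to 256) for Ffar1 and 57.6 (9.61 to 2349) for Casr. Gpr119 had 2.69 ± 1.20 (adjusted p = 0.0722) and Trpa1 1.07 ± 0.78 (adjusted p = 0.265). The median was 2.69 over the members and -0.10 over all genes. The 20 enteroendocrine markers moved with them, at 3523 to 3813 CPM in goblet cells and 413 to 473 CPM in control cells. So did 9 of 11 tuft and 7 of 8 enterocyte markers; their part was not tested. The scaling matters here. With TMM, 3233 genes were higher and 4370 lower in goblet cells, and with DESeq2 size factors 4096 were higher and 3481 lower, with the median of all genes moving by 0.25; the 4 members passed with both, and Gpr119 passed as well with DESeq2 size factors (adjusted p = 0.0489). Ffar2 lost its call without goblet replicate 2 (adjusted p = 0.148), without control replicate 1 (adjusted p = 0.101) and without all TruSeq libraries (adjusted p = 0.0612).

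After diphtheria toxin none of the 7 passed against CD274+CD69+ control cells, by edgeR or by DESeq2, and none had an unadjusted p under 0.05. The lowest was 0.261, for Cnr1, with 10 and 9 reads in DT-treated cells and 4 and 4 reads in control cells. Of all genes 0.0741% were higher. Ffar2 had -0.20 ± 0.42 and Trpa1 0.08 ± 0.78 on the log2 scale, and the remaining 5 were too low to read in the control cells.

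Among unsorted crypts, Ffar2 was the sensor that was higher in DBZ secretory progenitors than in enterocyte progenitors, by 4.74 ± 0.51 on the log2 scale (edgeR adjusted p = 1.24e-05; 1.89% of all genes higher). Trpa1 had 3.66 ± 0.97 (adjusted p = 0.0517) and Cnr1 a ratio of 12.8 (3.17 to 112; adjusted p = 0.134). Gpr119 was at least 8.88-fold higher, on 25 reads against 0, but did not pass (adjusted p = 0.0864). With DBZ replicate 1 left out, or with no filter, Trpa1 passed too (2 members), and with DESeq2's Wald test both Trpa1 and Gpr119 (3 members).

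Rbpj secretory progenitors had 4 sensors higher than enterocyte progenitors, beside 15.1% of all genes, but they alone were made with the TruSeq kit, so kit and group cannot be told apart. Ffar2 differed by 3.27 ± 0.51 (edgeR adjusted p = 0.000111) and Trpa1 by 4.19 ± 0.97 (adjusted p = 0.00335) on the log2 scale. Cnr1 had a ratio of 30.2 (7.94 to 256; adjusted p = 0.00312). Ffar1 passed on 8 reads in 1 library and is too low to read in both groups. Without enterocyte progenitor replicate 2, the count was 2 (Ffar2 and Cnr1). Enteroendocrine markers summed to 441 to 480 CPM in Rbpj secretory progenitors and 462 to 775 CPM in DBZ secretory progenitors, against 29.7 to 48.3 CPM in enterocyte progenitors, which lack Atoh1; their part was not tested.

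The single irradiated Bmi1-GFP library has no replicate and no test. For 6 of the 7 sensors it lay below all 3 unirradiated Bmi1-GFP libraries, where 43% of all genes did so and 39.4% lay above them. Ffar2 had 9.80 CPM (exact 95% Poisson interval 8.34 to 11.4) after radiation, against 25.6 to 51.8 CPM without. Casr had 1.42 CPM (0.899 to 2.13) against 4.41 to 8.20 CPM, Ffar1 0.431 CPM (0.173 to 0.889) against 2.28 to 4.76 CPM, and Gpr119 0.555 CPM (0.254 to 1.05) against 2.06 to 7.20 CPM. Cnr1 and Gpbar1 had no read, with an upper end of the same interval of 0.227 CPM (3 counts correspond to 0.185 CPM). Trpa1 stood apart, at 23.7 CPM (21.4 to 26.2), within the unirradiated range of 22.8 to 64.5 CPM; scaled on the plain library total it was 15.2 CPM, below that range of 25.6 to 80.8 CPM, and with DESeq2 size factors it was 22.6 CPM, level with the lowest library. Intervals cover counting error only. The granins summed to 1118 CPM in the irradiated library, and per 1000 granin CPM Trpa1 had 21.2 CPM, above 10.9 to 11.4 CPM in unirradiated cells. The 5 enterochromaffin markers summed to 686 CPM after radiation, inside the 516 to 1028 CPM of unirradiated cells, while the enteroendocrine marker sum was lower. That sum is not particular to endocrine cells. In enterocyte progenitors it was 98.0 to 110 CPM, where the 20 enteroendocrine markers summed to 29.7 to 48.3 CPM. Enterocyte markers summed to 109830 CPM after radiation, against 5075 to 13715 CPM without, goblet markers to 16070 CPM, against 3756 to 6459 CPM, and T cell markers to 287 CPM, against 1003 to 2385 CPM; the part of cell makeup was not tested.

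The genes most like each sensor were sought by Pearson correlation of log2 CPM over all 25 libraries, among 11390 genes with a mean of 5 CPM in some group. Libraries of a group share their cells, so the values are descriptions. Ffar2 was most like the endocrine transcription factor gene Isl1 (r = 0.957), Scgn (0.944) and Fev (0.940), and the same 5 genes led over the 12 group means. Trpa1 was most like Scn3a (0.932), a sodium channel subunit, with Afp (0.924) and Chga (0.903) also among its 5. Casr was nearest to Smarca1 (0.942) and Cav2 (0.926), Ffar1 to Serpina1d (0.936) and Gpr119 to Mapk8ip2 (0.919). Cnr1 was nearest to Dbpht2 (0.904), and the hormone gene Gip (0.871) was among its 5. Gpbar1 reached 0.795 with Syn2, and few reads limit it. Over the group means 4 of the 5 genes stayed for Casr and for Trpa1, and 2 for Ffar1 and for Cnr1. For Gpbar1 1 stayed and for Gpr119 0. Mapk8ip2, Dbpht2, Gip and Syn2 were not among the 5 over group means. Between members, r ran from 0.472 (Gpbar1 and Trpa1) to 0.871 (Ffar1 and Gpr119).

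Of 36 further sensor genes in a list, 29 could be tested. In enteroendocrine over Lgr5-GFP-Cre cells 14 were higher and 4 lower, beside 25.5% of all genes higher and 20.4% lower, with a median log2 fold change of 1.90 against 0.04 for all genes. Galr1, a galanin receptor, was at least 228-fold higher, and Sstr1, a somatostatin receptor, differed by 5.48. The 4 lower genes were Lpar5, Adora2b, Adra2a and Sstr2. Over Lgr5-GFP-DTR cells 7 were higher and 0 lower, beside 19.9% and 14.1% of all genes (median 0.97, against 0.08). Over Paneth cells 5 were higher and 4 lower, beside 15.4% and 14% (0.65, against 0.03). Over goblet cells 6 were higher and 8 lower, beside 36.8% and 26.1% (0.346, against 0.353). All 11 tuft markers were higher over Lgr5-GFP-Cre cells too. The 14 genes higher there included Trpm5 and Gnat3, and the part of tuft cells was not tested. In Bmi1-GFP over Lgr5-GFP-Cre cells 19 were higher, beside 27.9% of all genes (median 3.65, against 0.09 for all genes), with the somatostatin receptor gene Sstr5 at 5.76 and Abcc8, part of a potassium channel that sulphonylureas close, at 4.47. Adra2a alone was lower, beside 22.5% of all genes. Between Bmi1-GFP and enteroendocrine cells 8 were higher in Bmi1-GFP cells, beside 12.6% of all genes, among them the sugar transporter gene Slc5a1 (2.13) and Sstr2 (3.45). In that comparison 7 of 8 enterocyte markers were higher too, and their part was not tested. Trpm5, a channel of tuft cells, averaged 119 CPM in Bmi1-GFP libraries (69.4 to 151 CPM) and 544 CPM in enteroendocrine libraries. The latter mean rests on 1 library at 965 CPM, beside 123 CPM in the other. Trpm5 did not pass between these groups (edgeR adjusted p = 0.0801).

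The signalling partners of these receptors gave 15 of 26 higher and 4 lower in enteroendocrine than in Lgr5-GFP-Cre cells, and 16 higher and 2 lower in Bmi1-GFP than in Lgr5-GFP-Cre cells. The shares of all genes were 25.5% higher and 20.4% lower in the first comparison and 27.9% and 22.5% in the second. Gnao1, a Go subunit, was higher in both, by 5.24 and 4.17 on the log2 scale. Gnas, the Gs subunit, was lower in both, at -0.66 and -0.48. The other lower genes were Gna11, Plcb3 and Adcy3 in enteroendocrine cells and Ramp1 in Bmi1-GFP cells. In enteroendocrine over Lgr5-GFP-DTR cells 11 were higher and 1 lower, with a median log2 fold change of 0.59. Over Paneth cells 5 were higher and 5 lower (median -0.03), and over goblet cells 8 were higher and 11 lower (-0.40). Between Bmi1-GFP and enteroendocrine cells 3 were higher (Gna11, Plcb3 and Adcy3) and 4 lower (Gnai2, Plcb2, Itpr2 and Ramp1) in Bmi1-GFP cells, near the 12.6% and 12.1% of all genes. Of these Gna11, a Gq-type subunit, differed by 1.38 and Itpr2, a calcium release channel, by -2.19. Ramp1, a partner of the calcitonin receptor family, differed by -3.41. In that comparison 6 of 11 tuft markers and 8 of 15 myeloid markers were lower too (0 and 1 higher), and their part was not tested.

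Of 13 genes that handle bile acids and endocannabinoids, 2 were higher (Fabp6 and Mgll) and 1 lower (Faah) in enteroendocrine than in Lgr5-GFP-Cre cells, and 8 were higher in Bmi1-GFP than in Lgr5-GFP-Cre cells. The first counts are below the shares of all genes (25.5% higher, 20.4% lower), and the last stands beside 27.9%. Mgll, whose enzyme breaks down an endocannabinoid, was higher in both, by 2.97 and 3.34 on the log2 scale. The bile acid exporter genes Slc51a and Slc51b were higher in Bmi1-GFP than in enteroendocrine cells, by 1.98 and 2.58, as were 4 more (Nr1h4, Faah, Fabp2 and Cd36), beside 12.6% of all genes. Enterocyte markers moved the same way, at 5075 to 13715 CPM in Bmi1-GFP and 1388 to 2090 CPM in enteroendocrine libraries, and their part was not tested. Where 5 or fewer genes of these lists moved 1 way, all are named, which was decided with the values in view.

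Ffar2 and its neighbour receptor gene Ffar3, both for short-chain fatty acids, followed different markers. Ffar3 had 13.04 CPM in enteroendocrine replicate 1 and 84.7 CPM in replicate 2, the order of the tuft marker sums (901 and 5463 CPM), while Ffar2 had 77.8 and 44.8 CPM, the order of the granins. Enterocyte progenitors, with Ffar2 at 0.268 and 0.457 CPM, had Ffar3 at 28.7 and 15.6 CPM beside tuft sums of 1762 and 881 CPM. Over the 19 libraries with 10 or more Ffar3 reads, Ffar3 per 1000 tuft CPM ran from 11.8 to 31.4, a 2.67-fold range. The same ratio of Ffar2 ran from 0.152 to 201. Per 1000 granin CPM, Ffar2 ran from 4.36 to 55.9, a 12.8-fold range, and Ffar3 from 1.99 to 2228. Libraries were kept by their own Ffar3 reads, which limits how low the Ffar3 ratios can run. Among those left out, CD274+CD69+ control replicate 2 had 0 Ffar3 reads beside a tuft sum of 11.6 CPM. Lgr5-GFP-Cre replicate 2, also left out, had 0.0650 CPM of Ffar3 beside 36.4 CPM. The measure was chosen after the values were seen, and no test was made.

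**Figure D4:**
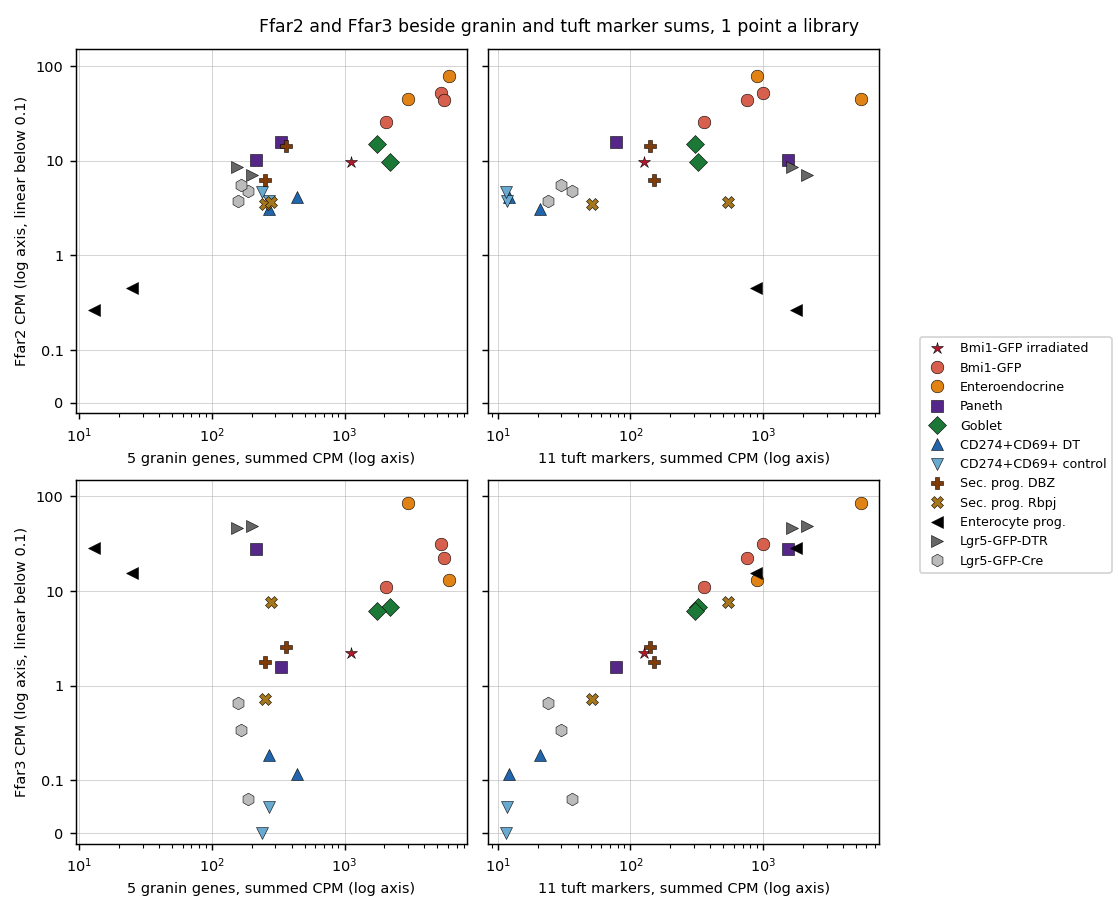
Ffar2 (upper row) and Ffar3 (lower row) CPM against the summed CPM of 5 granin genes (left) and 11 tuft markers (right), log axes, 1 point a library, symbols by group. Ffar3 follows the tuft sum, with enteroendocrine replicate 2 at 84.7 CPM beside a tuft sum of 5463 CPM, and Ffar2 does not.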

How the data were processed

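RNA was sequenced as 75-base single-end reads on a NextSeq, per the labels' protocols. The authors deposited raw read counts per gene for 24062 genes and 25 libraries, not normalized; the submitters' processing notes name the mm10 build, Bowtie2, TopHat2 2.0.6 and DESeq2, and of the counting itself (program, annotation, strand) nothing is stated there. The 25 count columns were matched to samples by title, and groups were taken from the labels. The series' chromatin samples are not analysed here.

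From the deposited counts, TMM-scaled CPM were computed over all 25 libraries. Differences were tested with edgeR 4.0.16 (R 4.3.3), by the quasi-likelihood test in 1 fit over the 24 libraries of the 11 groups with replicates, so that groups of 2 share 1 estimate of the spread. Genes under 10 counts at the smallest group size or 15 in all were filtered out, leaving 14837, and p-values were adjusted by Benjamini-Hochberg over these (threshold 0.05). Where a group had 0 reads, 3 counts over the group served as the floor of a bound. Ratios with 1 to 3 reads in a group carry exact 95% intervals that cover counting error only. The fit was tested on simulated counts, but the outcome is not given here and no call rests on it. Alternatives were DESeq2 size factors, DESeq2 1.42.0, no filter, the compared groups alone, a replicate block, no TruSeq libraries, and leaving out each library.

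The 7 genes and the lists of markers and further genes were chosen with earlier results of these data known. Named genes were the 7 members, the 5 genes of most like pattern for each (unnamed gene models left out), and from each list up to 4 genes of lowest adjusted p and the most expressed gene that did not pass. Sequences and coordinates are from RefSeq, GRCm38.p6, the build that mm10 names.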

Additional observations from a re-analysis of the deposited data

How the results depend on the processing

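Over 65 log2 fold changes of members that were readable or called, 676 values under other settings were computed. Of these, 600 kept their direction and their side of the threshold, 64 lost the call, 8 gained one and 4 changed sign or fell to 0. With the compared groups fitted alone, 3 members passed for enteroendocrine over Lgr5-GFP-DTR cells and 3 over Paneth cells. Without the TruSeq libraries 3 passed for Bmi1-GFP over CD274 CD69 control cells and 0 for control over Lgr5-GFP-Cre cells. For Notch-inhibited secretory over enterocyte progenitors 2 passed with no filter on low counts and 3 with the DESeq2 Wald test. The cause of these differences was not tested. Leaving out 1 library at a time, the members called numbered 7 to 7 for enteroendocrine over Lgr5-GFP-Cre cells, 4 to 6 over Lgr5-GFP-DTR cells, 3 to 5 over Paneth cells and 1 to 4 over goblet cells. They numbered 6 to 6 for Bmi1-GFP over Lgr5-GFP-Cre cells, 0 to 2 over enteroendocrine cells and 3 to 6 over control cells. They numbered 0 to 2 for control over Lgr5-GFP-Cre cells, 3 to 4 for goblet over control cells, 0 to 0 for diphtheria toxin, 1 to 2 for Notch-inhibited and 2 to 4 for Rbpj-deleted progenitors. Where this left a group with 1 library, that library was assumed to vary like the other groups. The 4 values that changed sign or fell to 0 were all of this kind. Casr for enteroendocrine over Paneth cells ran from -0.53 (without Paneth replicate 2) to 1.36. For Bmi1-GFP over enteroendocrine cells Gpr119 ran from -0.93 to 0.12 (without enteroendocrine replicate 1) and Trpa1 from -0.020 (without enteroendocrine replicate 2) to 1.14. Ffar1 for Rbpj-deleted over enterocyte progenitors ran from 0 (without Rbpj replicate 1, where no read was left) to 5.63. Correlations of same-numbered libraries' deviations ran from -0.208 to 0.327, highest for enteroendocrine and Paneth cells. The labels name no shared animal or day, so the numbers were not taken as pairs. In the comparison with 3 pairs, Bmi1-GFP over Lgr5-GFP-Cre cells, no pair passed 0.1 (highest 0.0496). That comparison holds no enteroendocrine or Paneth library, so it cannot tell whether those were paired. With the replicate number as a block, 1 member, Casr, passed between Bmi1-GFP and enteroendocrine cells, as Cnr1 lost its call (-2.22, edgeR adjusted p = 0.0559). For control over Lgr5-GFP-Cre cells 0 passed, as Trpa1 lost its call (1.74, edgeR adjusted p = 0.106), and no other call on a member changed. CPM on the plain total moved 14 of 74 group levels by more than the spread between replicates, and DESeq2 size factors moved 3. The single irradiated library has no such spread, so its levels could not be judged by one. Depth limits Gpbar1 most, with 111 reads in all libraries.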
